A study of Mus musculus with 6 samples.

Results

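The 39 genes described here encode the enzymes and carriers that take glucose to pyruvate and lactate, the enzymes that set fructose-2,6-bisphosphate, the gate through which pyruvate enters the mitochondrion, and the main enzymes of the pentose phosphate pathway. They were given as a list of gene names and were matched to the names printed on the array, where the pyruvate kinase gene Pkm2 is written Pkm. All 39 were found among 36870 gene names, and all 39 were among the 20475 genes bright enough to be tested. Each gene was read by its brightest probe. RNA of mouse lung tumors had been hybridised to Agilent whole-genome arrays in 2 colours, so that every array gave a ratio of a tamoxifen sample over an oil sample. There were 3 samples labelled tamoxifen and 3 labelled corn oil. Tamoxifen sample 1 shared its arrays with oil sample 1, and likewise for 2 and 3, and each such couple was hybridised once in each dye orientation, which gave 6 arrays.

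Every mouse, in both groups, was of strain C57BL/6J with the genotype Ror1f/f; CAG-CreER; SPC-hEGFRdel746-750. Ror1 is a receptor of the Wnt5a pathway, and its floxed alleles are cut out by the Cre enzyme once tamoxifen activates it. The CAG promoter is active in nearly every cell type, so deletion is not limited to tumor cells, while the surfactant protein C promoter (SPC) places the mutant human EGFR oncogene in alveolar epithelium. Mice received the drug or its vehicle from 16 to 20 weeks of age, and the tumor was taken at 20 weeks. Oil controls carry the same alleles, and no tamoxifen-treated group without CreER is among these samples, so Ror1 deletion, active Cre and the drug itself cannot be told apart. The labels do not say whether each numbered sample is a separate mouse, a separate tumor or a pool, so p-values measure only the spread between these samples.

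Glycolysis splits glucose into pyruvate with a small yield of ATP, and most tumors run it fast and release the product as lactate even where oxygen is present. Many of its genes are textbook targets of HIF-1, the oxygen-sensitive transcription factor whose alpha subunit is named in the title of the series, and HIF-1 binds DNA at a short core written ACGTG or GCGTG. The pentose phosphate pathway branches off at glucose-6-phosphate and supplies NADPH and ribose, while the pyruvate dehydrogenase complex, held back by the PDK kinases, admits pyruvate to mitochondrial oxidation.

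Several measurements on the samples bear on every value that follows. The Ror1 probe was higher, not lower, in the samples labelled tamoxifen (log2 ratio 0.40 ± 0.21, SD over n = 3 couples; limma adjusted p = 0.69). It was higher on all 6 arrays (6.04% of all genes tested were). Its log2 levels were 9.34, 9.30 and 9.17 in tamoxifen and 8.76, 8.86 and 8.99 in oil samples 1, 2 and 3, without overlap. The labels do not say whether that probe lies in the deleted part, so it does not check them, and the words tamoxifen and oil name samples by their label throughout. Alveolar type 2 cell markers, all 10 of which were bright enough to be tested, bore out that the tissue was lung. They do not tell tumor from adjacent lung. Their summed log2 levels were 19.18 to 19.21 in tamoxifen and 19.45 to 19.51 in oil samples. Couple 1 was not matched in sex-linked signal. Eif2s3y, on chromosome Y, had log2 levels of 9.72, 6.20 and 10.70 in tamoxifen samples 1, 2 and 3 and of 6.01, 6.06 and 10.07 in oil samples 1, 2 and 3, and Xist, made from the inactive X, had 6.61, 9.09 and 6.08 against 8.74, 8.99 and 5.97. In couples 2 and 3 the log2 ratio was 0.14 and 0.63 for Eif2s3y and 0.10 and 0.11 for Xist, while in couple 1 tamoxifen sample 1 had high Eif2s3y and oil sample 1 high Xist. Alveolar macrophage markers (14 of 15 on the array, all 14 tested) had a summed log2 level of 16.41, 18.20 and 17.08 in tamoxifen samples 1, 2 and 3 and of 17.16 to 17.84 in oil samples. In bulk tissue, fewer cells of a type and less RNA per cell cannot be told apart.

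Promoter sequences are shown first for the 3 genes with the most negative mean ratios, Hk2, Aldoa and Ldha, then for the 2 with the most negative ratios in couple 1, Slc16a3 and Slc2a1, and for Pdk4, which was lower on all 6 arrays and is the only one of the 6 whose window shown here has no ACGTG. Each is the 250 bases before a start site, 5′ to 3′ on the gene's strand, from RefSeq on build GRCm38.p6. Capitals mark ACGTG and GCGTG on either strand, so the reverse complements CACGT and CACGC are in capitals too. The windows are chr6:82774455-82774704 (minus strand) for Hk2, chr7:126799255-126799504 (minus) for 1 of 3 listed Aldoa start sites, chr7:46845554-46845803 (plus) for 1 of 2 listed Ldha start sites, chr11:120948817-120949066 (plus) for Slc16a3, chr4:119108495-119108744 (plus) for Slc2a1 and chr6:5496279-5496528 (minus) for Pdk4. The Ldha window not shown has no ACGTG, and neither has 1 of the Aldoa windows not shown.
Hk2: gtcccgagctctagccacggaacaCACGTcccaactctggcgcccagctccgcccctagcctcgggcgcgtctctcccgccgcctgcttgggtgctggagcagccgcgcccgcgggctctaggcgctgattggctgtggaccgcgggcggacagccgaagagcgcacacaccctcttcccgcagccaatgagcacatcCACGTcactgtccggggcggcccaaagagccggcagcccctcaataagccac
Aldoa: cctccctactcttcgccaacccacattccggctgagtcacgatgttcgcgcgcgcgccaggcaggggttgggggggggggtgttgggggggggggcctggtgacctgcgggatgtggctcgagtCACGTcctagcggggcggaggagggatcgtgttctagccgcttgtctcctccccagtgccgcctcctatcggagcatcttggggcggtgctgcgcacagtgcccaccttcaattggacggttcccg
Ldha: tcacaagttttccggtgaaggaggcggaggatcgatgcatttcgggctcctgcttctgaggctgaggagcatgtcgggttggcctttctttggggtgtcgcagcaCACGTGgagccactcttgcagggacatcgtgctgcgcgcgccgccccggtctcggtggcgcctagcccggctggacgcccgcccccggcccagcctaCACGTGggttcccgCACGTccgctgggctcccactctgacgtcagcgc
Slc16a3: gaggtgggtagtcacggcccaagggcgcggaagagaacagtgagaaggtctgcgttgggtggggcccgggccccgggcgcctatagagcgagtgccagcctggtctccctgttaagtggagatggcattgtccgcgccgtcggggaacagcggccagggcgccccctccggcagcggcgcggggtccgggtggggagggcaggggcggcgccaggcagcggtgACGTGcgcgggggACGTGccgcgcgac
Slc2a1: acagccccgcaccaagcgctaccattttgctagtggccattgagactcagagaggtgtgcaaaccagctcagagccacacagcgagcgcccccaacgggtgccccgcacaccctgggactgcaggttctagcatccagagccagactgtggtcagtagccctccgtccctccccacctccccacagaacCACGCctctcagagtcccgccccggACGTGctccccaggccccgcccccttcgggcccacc
Pdk4: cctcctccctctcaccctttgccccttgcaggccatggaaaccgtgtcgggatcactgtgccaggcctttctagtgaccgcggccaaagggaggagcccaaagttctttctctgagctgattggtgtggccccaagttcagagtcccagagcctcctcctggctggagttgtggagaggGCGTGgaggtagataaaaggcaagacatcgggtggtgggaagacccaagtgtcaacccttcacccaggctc

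Such windows were found for 38 of the 39 genes, with 58 start sites. ACGTG stood in at least 1 window of 17 of the 38 (44.7%), against 18.5% of all 27025 genes in the RefSeq table, and GCGTG in 25 (65.8%) against 30.9%. Counted per window, ACGTG was in 21 of 58, against 16.6% of all 32851, and GCGTG in 30 of 58, against 28.2%. The palindrome CACGTG, which contains ACGTG on both strands, stood in windows of 6 of the 38 (15.8%) against 6.86% of all genes. Ldha counts 5 matches to ACGTG because its pair of CACGTG palindromes is read on each strand. The 17 genes with ACGTG had a median log2 ratio of -0.37 in couple 1 and the 21 without it -0.15, but the medians of the means over couples were -0.09 and -0.11. For GCGTG the order in couple 1 was the other way, -0.25 for the 25 genes with it and -0.35 for the 13 without. The shares of all genes here include genes not bright enough to be tested on the array, whereas all 39 were tested. A match is a run of letters and no measure of binding.

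No single gene of the 39 passed the test (limma over all 20475 genes, Benjamini-Hochberg adjusted p under 0.05), where 0% of all genes tested were called, and the lowest adjusted p among the 39 was 0.69. The log2 ratio of tamoxifen over oil was below 0 for 27 of 39 (69.2%), against 51.2% of all genes tested. Their median ratio was -0.09, against 0.00 over all genes. At limma's unadjusted p under 0.05, 3 of the 39 were lower (Hk2, Aldoa and Pdk4; 4.01% of all genes) and 2 higher (Pfkfb1 and Pfkfb4; 3% of all genes). The SD over the 3 couples was larger than the size of the mean for 28 of 39. This was not counted over all genes, so it is not read as a trait of these 39. Over all genes tested, the median moderated standard error was 0.10 on the log2 scale. Among the 39 it ran from 0.075 for Pfkfb1 to 0.453 for Ldhb.

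The couples did not move alike. In couple 1 the median log2 ratio of the 39 was -0.27, in couple 2 it was 0.17 and in couple 3 -0.08, while over all genes tested it lay between -0.01 and 0.00 in each. Ratios were below 0 for 26 genes in couple 1 (51.5% of all genes), for 14 in couple 2 (50.2%) and for 28 in couple 3 (51.1%). At least 1.5-fold lower were 11 genes in couple 1 (3.89% of all genes), none in couple 2 (2.32%) and 4 in couple 3 (2.57%). At least 1.5-fold higher were 3 in couple 1 (2.5%), 2 in couple 2 (1.98%) and none in couple 3 (2.45%). The commonest order of signs, lower in couple 1, higher in couple 2 and lower in couple 3, was that of 11 genes (28.2%, against 11.3% of all genes): Hk3, Pfkp, Tpi1, Gapdh, Pgam1, Eno1, Pkm, Ldha, Pfkfb3, Pdk1 and Taldo1. Another 6 (15.4%, against 11% of all genes) were lower in couple 1 and higher in both others: Aldoc, Pgk1, Slc2a1, Slc16a3, Pdk3 and Pdha1.

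Only 8 of the 39 were lower in all 3 couples (Hk2, Hkdc1, Gpi1, Pfkl, Aldoa, Pfkfb2, Pdk4 and Pgm2), or 20.5% against 16.4% of all genes, and 3 were higher in all 3 (Pfkfb1, Pfkfb4 and G6pdx), or 7.69% against 13.8%. On all 6 arrays 2 were lower (Gpi1 and Pdk4; 7.21% of all genes) and 1 higher (Pfkfb1; 6.04%). By levels in samples rather than ratios, the 3 tamoxifen samples lay below the 3 oil samples for 5 genes (Gpi1, Pfkl, Aldoa, Pfkfb2 and Pdk4; 7.24% of all genes) and above them for 2 (Pfkfb1 and Pfkfb4; 5.25%). Without couple 1 the median ratio of the 39 was 0.03 with 18 below 0, and without couple 2 it was -0.25 with 30 below 0, so couple 1 decides the direction of the median.

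**Figure D1:**
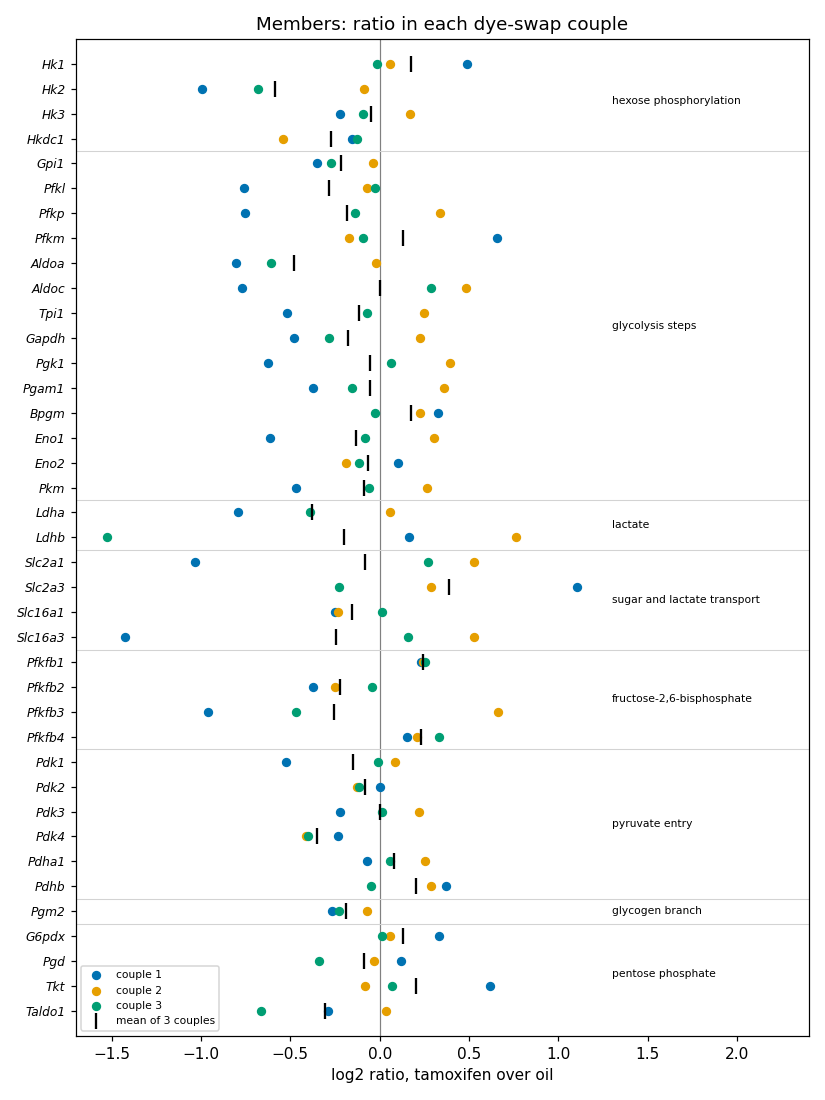
Log2 ratio of tamoxifen over oil (x axis) for each of the 39 genes (rows, grouped by role), with 1 point per couple and a bar at the mean of the 3 couples. Points of couple 1 lie mostly to the left (26 genes below 0) and those of couple 2 mostly to the right (14 below 0); Ldhb, Slc16a3 and Pfkfb3 spread widest.

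Hexokinases trap glucose in the cell as glucose-6-phosphate, and Hk2 is the isoform that tumors most often raise. The log2 level of Hk2 was 9.25, 9.41 and 9.55 in tamoxifen samples 1, 2 and 3 and 10.24, 9.50 and 10.23 in oil samples 1, 2 and 3. Oil samples 1 and 3 stood above all others, and oil sample 2 lay just below tamoxifen sample 3, so the groups overlapped by that sample. The couple ratios of Hk2, in the order 1, 2, 3, were -0.996, -0.09 and -0.68 and their mean -0.59 ± 0.46 (SD over n = 3 couples; limma adjusted p = 0.69), which is 1.5-fold lower. The Hk2 probe (NM_013820) lies at chr6:82675056-82675115 in mm9, the build of the array's annotation.

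Hkdc1, a hexokinase-like enzyme, had log2 levels of 11.35, 11.16 and 12.15 in the tamoxifen samples and of 11.50, 11.70 and 12.28 in the oil samples, where here and in what follows samples stand in the order 1, 2, 3 and tamoxifen before oil. Samples of couple 3 were the highest of each group, and the groups overlapped. The couples gave -0.15, -0.54 and -0.13, all negative (mean -0.27 ± 0.23, SD over n = 3 couples; limma adjusted p = 0.69). By dye orientation the mean of Hkdc1 was -0.06 with tamoxifen in Cy5 and -0.48 with it in Cy3. Hk3, the hexokinase of myeloid cells, was at -0.05 ± 0.20. Hk1, the housekeeping isoform, was at 0.18 ± 0.27 by its brightest probe, made to an older hexokinase mRNA record (J05277), but a dimmer probe made to NM_001146100 gave -0.28, -0.78 and 0.23 in couples 1, 2 and 3, so the Hk1 probes disagreed in sign in every couple.

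Of the 14 genes for the steps from glucose-6-phosphate to pyruvate, 11 had a mean ratio below 0, with a median of -0.10, and none passed the test. Their medians in couples 1, 2 and 3 were -0.50, 0.24 and -0.09. Gpi1, the isomerase that makes fructose-6-phosphate, was the only one of them with a negative ratio on all 6 arrays. Its log2 level was 14.40, 14.55 and 14.35 in the tamoxifen samples and 14.75, 14.59 and 14.62 in the oil samples. Every tamoxifen sample lay below every oil sample, by as little as 14.55 against 14.59. The Gpi1 ratio by couple was -0.35, -0.04 and -0.27 (mean -0.22 ± 0.16, SD over n = 3 couples; limma adjusted p = 0.69), and all 4 of its probes had the same sign in every couple. Centring each array on its median in place of loess gave a mean of -0.12. The brightest Gpi1 probe lies at chr7:34987178-34987237 (mm9).

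Phosphofructokinase, the main control point of glycolysis, is built from the subunits made by Pfkl, Pfkp and Pfkm. Pfkl had log2 levels of 8.90, 9.25 and 9.31 against 9.66, 9.33 and 9.34. The groups did not overlap, but tamoxifen sample 1 and oil sample 1 supplied nearly all of the gap. Its ratio by couple was -0.76, -0.07 and -0.03 (mean -0.29 ± 0.41, SD over n = 3 couples; limma adjusted p = 0.74), and a dimmer probe gave -1.42, 0.40 and 0.76, so only couple 1 had the same sign on both. Pfkp had log2 levels of 9.21, 9.90 and 9.43 in tamoxifen and of 9.96, 9.56 and 9.57 in oil samples, which overlapped. The Pfkp ratio was -0.76, 0.34 and -0.14 (mean -0.19 ± 0.55, SD over n = 3 couples; limma adjusted p = 0.86), with the same signs on all 4 of its probes that were bright enough, and without couple 1 the mean was 0.10. Pfkm, the muscle subunit, went the other way in couple 1, at 0.66, -0.17 and -0.09.

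Aldolase cleaves fructose-1,6-bisphosphate. Aldoa had log2 levels of 15.20, 15.84 and 15.43 in tamoxifen samples 1, 2 and 3 and of 16.01, 15.86 and 16.04 in oil samples 1, 2 and 3. The oil samples stood close together above all tamoxifen samples, and the closest were tamoxifen sample 2 and oil sample 2. The ratio of Aldoa was -0.81, -0.02 and -0.61 (mean -0.48 ± 0.41, SD over n = 3 couples; limma adjusted p = 0.69), or 1.39-fold lower, read at chr7:133938816-133938875 (mm9). Aldoc, the paralog best known from brain, had log2 levels of 10.89, 11.95 and 11.63 against 11.66, 11.47 and 11.34. Tamoxifen sample 1 was the lowest and tamoxifen sample 2 the highest of the 6. The couple ratios of Aldoc were -0.77, 0.48 and 0.29, which cancel to a mean of 0.00 ± 0.68 (SD over n = 3 couples), and its 3 probes had the same signs in each couple.

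From triose phosphates to pyruvate most genes were lower in couple 1 and higher in couple 2. Pgk1, the first ATP-yielding kinase, had log2 levels of 14.44, 15.02 and 14.38 in tamoxifen and of 15.07, 14.62 and 14.32 in oil samples. Oil sample 1 and tamoxifen sample 2 were the highest, and oil sample 3 the lowest, so the groups overlapped. Its couple ratios were -0.63, 0.40 and 0.06 (mean -0.06 ± 0.52, SD over n = 3 couples; limma adjusted p = 0.96). Eno1, the enolase of most tissues, had log2 levels of 14.06, 14.62 and 14.10 against 14.67, 14.32 and 14.18, again highest in oil sample 1 and tamoxifen sample 2. The couple ratios of Eno1 were -0.61, 0.30 and -0.08 (mean -0.13 ± 0.46, SD over n = 3 couples; limma adjusted p = 0.88). Without couple 1 the means were 0.23 for Pgk1 and 0.11 for Eno1.

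The order of signs of Eno1 was also that of Gapdh, Tpi1, Pgam1 and Pkm, while Pgk1 differed from it in couple 3. Gapdh, which is widely used as a reference gene for normalising expression, was at -0.48, 0.23 and -0.29 in couples 1, 2 and 3, and its 6 probes had the same sign in each couple. Tpi1, the triose phosphate isomerase, was at -0.52, 0.25 and -0.07, Pgam1, the phosphoglycerate mutase, at -0.37, 0.36 and -0.16, and Pkm, the pyruvate kinase, at -0.47, 0.26 and -0.06. Bpgm, which makes the red cell metabolite 2,3-bisphosphoglycerate, was at 0.18 ± 0.18, and Eno2, the neuronal enolase, at -0.07 ± 0.15. Pfkp, Aldoc, Tpi1, Gapdh, Pgk1, Pgam1, Eno1 and Pkm were thus each below 0 in couple 1 and above 0 in couple 2.

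Lactate dehydrogenase joins pyruvate and lactate, with Ldha as the tumor-associated subunit and Ldhb as the subunit of oxidative tissue. Ldha had log2 levels of 15.66, 16.24 and 15.77 in tamoxifen samples 1, 2 and 3 and of 16.45, 16.18 and 16.16 in oil samples 1, 2 and 3. Tamoxifen samples 1 and 3 were the lowest, but tamoxifen sample 2 stood above 2 oil samples, so the groups overlapped. The ratio of Ldha was -0.80, 0.06 and -0.39 (mean -0.38 ± 0.43, SD over n = 3 couples; limma adjusted p = 0.69), and a second probe gave -0.61, 0.02 and -0.29. The mean of Ldha was -0.15 on the arrays with tamoxifen in Cy5 and -0.60 on those with it in Cy3.

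Ldhb had the widest spread between couples of the 39. Its log2 level was 14.18, 14.37 and 12.58 in tamoxifen and 14.02, 13.61 and 14.10 in oil samples. Tamoxifen sample 3 alone was low, and the other 5 samples lay within 13.61 to 14.37. The ratio by couple was 0.17, 0.76 and -1.53 (mean -0.20 ± 1.19, SD over n = 3 couples; limma adjusted p = 0.93), and without couple 3 the mean was 0.46. Another Ldhb probe at chr6:142444206-142447028 (mm9), whose 60 bases are spread over 2823 bases of the genome and so cross spliced-out sequence, gave 0.29, 0.73 and -1.49, so the low value of tamoxifen sample 3 was read by a pair of different probes. That probe is shown with 3 others of the same kind, for Slc2a3 (chr6:122681586-122682419), Pfkp (chr13:6581718-6583872) and Pfkfb3 (chr2:11404189-11405602), because they read spliced RNA at a site apart from the brightest probe.
Ldhb: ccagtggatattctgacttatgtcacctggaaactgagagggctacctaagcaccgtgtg
Slc2a3: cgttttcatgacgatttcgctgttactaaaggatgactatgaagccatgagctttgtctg
Pfkp: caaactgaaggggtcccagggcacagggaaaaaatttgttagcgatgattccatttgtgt
Pfkfb3: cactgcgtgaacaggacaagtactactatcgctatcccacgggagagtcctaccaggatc

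Glucose enters through the carriers of the GLUT family, and lactate leaves through the monocarboxylate carriers. Slc2a1 (GLUT1), the carrier most tied to tumor glucose uptake, had log2 levels of 10.59, 11.47 and 11.00 in tamoxifen and of 11.62, 10.95 and 10.74 in oil samples. Tamoxifen sample 1 was the lowest of the 6 and oil sample 1 the highest, with the other samples in between and overlapping. The Slc2a1 ratio by couple was -1.03, 0.53 and 0.27 (mean -0.08 ± 0.84, SD over n = 3 couples; limma adjusted p = 0.97). Without couple 1 the mean was 0.40.

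Slc16a3 (MCT4), the lactate exporter of glycolytic cells, followed the same course with a larger swing. Its log2 level was 9.28, 10.62 and 9.70 in tamoxifen and 10.70, 10.10 and 9.54 in oil samples. Here too oil sample 1 and tamoxifen sample 1 were the extremes. The ratio of Slc16a3 was -1.42, 0.53 and 0.16 (mean -0.25 ± 1.04, SD over n = 3 couples; limma adjusted p = 0.90), which is 2.68-fold lower in couple 1, and the mean without couple 1 was 0.34. Slc16a1 (MCT1), which carries lactate in either direction, was at -0.16 ± 0.15.

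Slc2a3 (GLUT3), a high-affinity glucose carrier of neurons and leukocytes, took the opposite sign in couple 1. Its log2 levels were 11.54, 10.45 and 9.25 in tamoxifen and 10.43, 10.16 and 9.48 in oil samples. Tamoxifen sample 1 was the highest of the 6 and both samples of couple 3 were the lowest, and the groups overlapped. The Slc2a3 ratio was 1.11, 0.29 and -0.23 (mean 0.39 ± 0.67, SD over n = 3 couples; limma adjusted p = 0.76), and the splice-crossing probe shown above gave 0.42, 0.21 and -0.07. Among the carriers, then, couple 1 was below 0 for GLUT1 and MCT4 and above 0 for GLUT3.

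**Figure D2:**
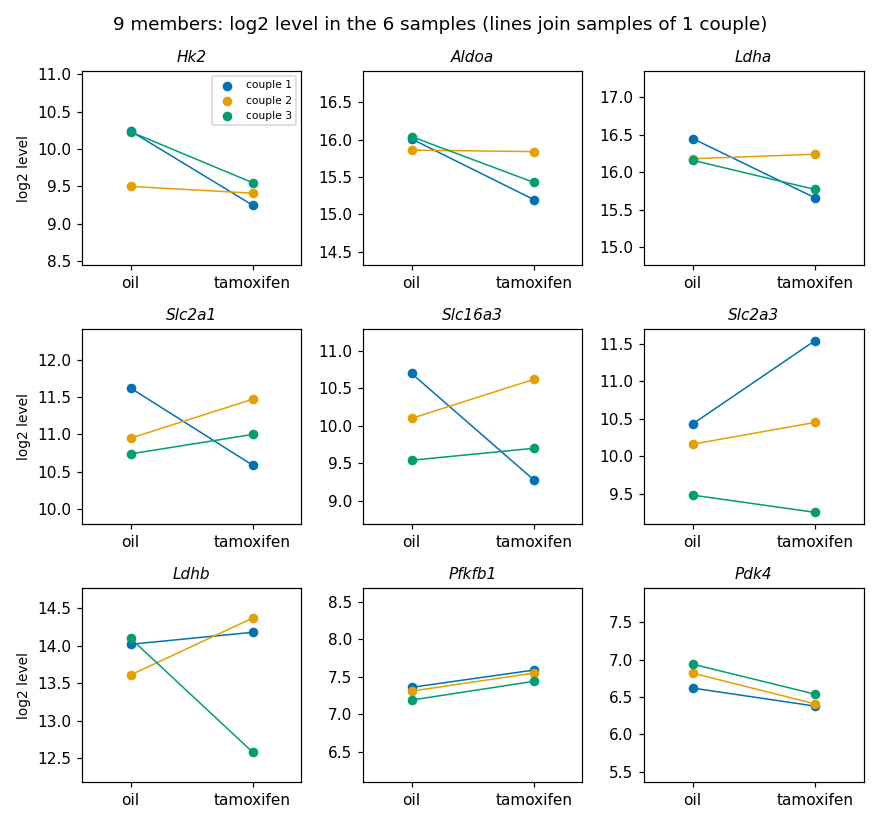
Log2 level of 9 genes (y axis, after normalization of each channel) in the oil and tamoxifen samples, with a line joining the samples of each couple. Hk2, Aldoa and Pdk4 are lower in the tamoxifen sample of every couple and Pfkfb1 is higher, Slc2a1 and Slc16a3 are lower in couple 1 and higher in couples 2 and 3, and the low Ldhb value (12.58) is that of tamoxifen sample 3.

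The PFKFB enzymes make and break fructose-2,6-bisphosphate, the strongest activator of phosphofructokinase. The 4 genes did not move as a group: 2 had a mean below 0, and their median was 0.00. Pfkfb1, the liver and muscle isoform, had log2 levels of 7.59, 7.55 and 7.44 in tamoxifen and of 7.36, 7.31 and 7.19 in oil samples. All tamoxifen samples lay above all oil samples, the closest being tamoxifen 3 and oil 1. Its ratio was 0.23, 0.24 and 0.25 in couples 1, 2 and 3, with an SD over couples of 0.01 around a mean of 0.24 and a moderated standard error of 0.08 (limma adjusted p = 0.69). The mean of Pfkfb1 was 0.42 by the scanner software's ratio and by the deposited table, and 0.13 on the arrays with tamoxifen in Cy3 alone. The Pfkfb1 probe (NM_008824) lies at chrX:147078320-147078379 in mm9.

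Pfkfb4 had log2 levels of 11.59, 11.75 and 11.60 in tamoxifen and of 11.43, 11.54 and 11.27 in oil samples, again without overlap. The Pfkfb4 ratios were 0.15, 0.21 and 0.33 (mean 0.23 ± 0.09, SD over n = 3 couples; limma adjusted p = 0.69), with means of 0.38 and 0.08 where Cy5 or Cy3 held tamoxifen. Pfkfb2, the heart isoform, went the other way, at 10.71, 10.97 and 10.98 against 11.08, 11.22 and 11.03 (mean ratio -0.22 ± 0.17, SD over n = 3 couples; limma adjusted p = 0.69), but its dimmer probes gave means of -0.01 and 0.03. Pfkfb3, the inducible isoform with the highest kinase activity, had log2 levels of 10.03, 10.82 and 9.65 against 10.99, 10.16 and 10.12, highest in oil sample 1 and tamoxifen sample 2. The Pfkfb3 ratio by couple was -0.96, 0.66 and -0.47 (mean -0.26 ± 0.83, SD over n = 3 couples; limma adjusted p = 0.87), and its splice-crossing probe had the same signs with smaller values, -0.21, 0.12 and -0.14. Without couple 1 the mean of Pfkfb3 was 0.10.

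At the entry of pyruvate, 3 of 6 genes had a mean below 0, with a median of -0.04. Pdk4, the dehydrogenase kinase induced by fasting and fatty acids, was the only one of the 39 not well above background in every reading, and reached that mark in 4 of 6 tamoxifen and 5 of 6 oil readings. Its log2 level was 6.38, 6.41 and 6.54 in tamoxifen and 6.62, 6.82 and 6.94 in oil samples. The groups did not overlap, and the closest samples were tamoxifen 3 and oil 1. The Pdk4 ratio by couple was -0.23, -0.41 and -0.40 (mean -0.35 ± 0.10, SD over n = 3 couples; limma adjusted p = 0.69), or 1.27-fold lower, at chr6:5433441-5433500 (mm9). The size of the Pdk4 ratio depended on the background correction: the mean was -0.74 with a normexp offset of 0 and -1.08 by the scanner software's own ratio and by the deposited table.

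Pdk1, the HIF-1-induced kinase of the family, was at -0.53, 0.08 and -0.01, with log2 levels of 10.08 in tamoxifen sample 1 and 10.57 to 10.69 in the other 5 samples. Pdk1 thus stood apart in tamoxifen sample 1 alone, and its 5 probes did not share a sign in any couple. Pdk2 was at -0.08 ± 0.07 and Pdk3 at 0.00 ± 0.22. The dehydrogenase subunits themselves were at 0.08 ± 0.16 for Pdha1 and 0.20 ± 0.22 for Pdhb.

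Of the 4 pentose phosphate genes 1 was below 0 in couple 1 (Taldo1), where their median was 0.22; the difference from the glycolysis genes was not tested. G6pdx, the entry enzyme and main source of NADPH, was at 0.33, 0.06 and 0.01, with 12.37 in tamoxifen sample 1 and 12.03 to 12.09 in the other 5 samples. Tkt, the transketolase, was at 0.62, -0.08 and 0.07, with log2 levels of 13.77, 13.26 and 13.55 in tamoxifen and of 13.16, 13.34 and 13.48 in oil samples, while a dimmer Tkt probe gave -0.25, 0.06 and -0.02. By their brightest probes both genes were thus highest in tamoxifen sample 1, the sample in which Slc2a1, Slc16a3 and Aldoa were lowest. Pgd, the 6-phosphogluconate dehydrogenase, was at -0.09 ± 0.23.

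Taldo1, the transaldolase, had log2 levels of 14.48, 14.70 and 14.39 in tamoxifen and of 14.77, 14.67 and 15.05 in oil samples. Oil sample 3 was the highest, and tamoxifen sample 2 lay above oil sample 2, so the groups overlapped. Its ratio was -0.29, 0.04 and -0.66 (mean -0.30 ± 0.35, SD over n = 3 couples; limma adjusted p = 0.70). The gene the array names Pgm2 (NM_028132), a phosphoglucomutase that links glycolysis to glycogen and is called Pgm1 in the current RefSeq table, was at -0.27, -0.07 and -0.23 (mean -0.19 ± 0.10, SD over n = 3 couples; limma adjusted p = 0.69).

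The 39 genes were then set out by sample. Oil sample 1 had the highest level of 16 of them and tamoxifen sample 1 the lowest level of 16, while among all genes tested these samples were highest and lowest for 15.7% and 23%. Tamoxifen sample 1 was also the highest for 8 (22.1% of all genes), among them Hk1, Pfkm, Slc2a3, G6pdx and Tkt. Tamoxifen sample 3 was the highest for none (13.4% of all genes) and oil sample 2 for 1 (14%). The median deviation of the 39 from each gene's mean over 6 samples was -0.17, 0.11 and -0.08 in tamoxifen samples 1, 2 and 3 and 0.17, -0.02 and 0.03 in oil samples 1, 2 and 3.

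**Figure D3:**
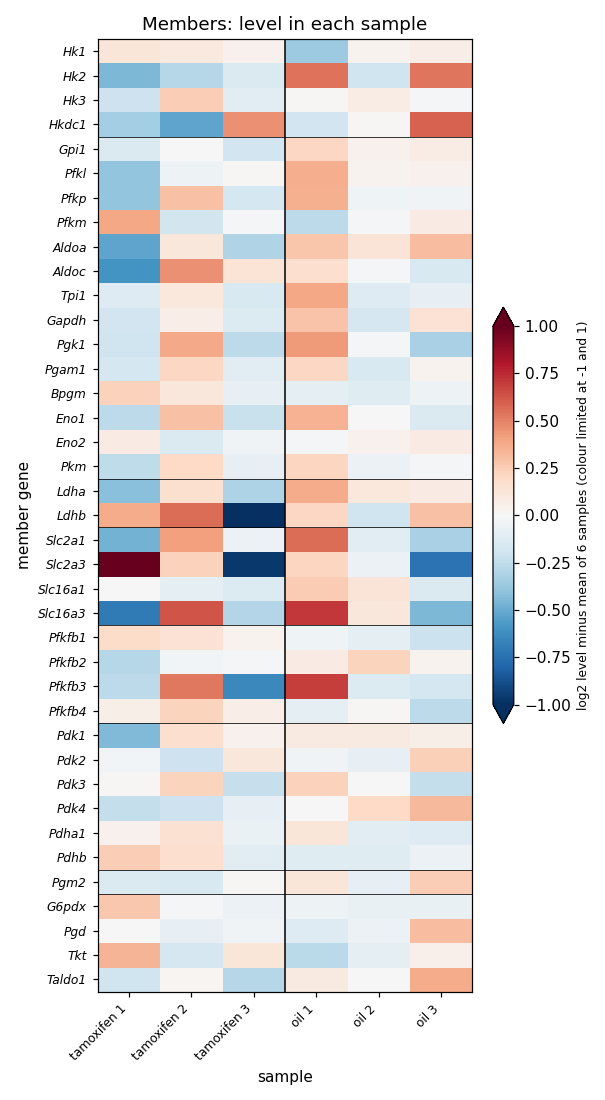
Colour map of the log2 level of each gene (rows, ordered by role) in each sample (columns), as the difference from the gene's mean over the 6 samples, with colours limited at -1 and 1. Tamoxifen sample 1 is blue and oil sample 1 red for most glycolysis steps and for Slc2a1 and Slc16a3, and Ldhb is at its lowest in tamoxifen sample 3.

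Marker lists of other cell types and states moved across the same samples. Alveolar macrophage markers had median deviations of -0.78, 0.42 and -0.15 in tamoxifen samples 1, 2 and 3 and of 0.24, 0.00 and 0.14 in oil samples, with couple medians of -1.08, 0.34 and -0.33, so the signs in the 3 couples were those of the 39 genes. In couple 1 all 14 were below 0. Proliferation genes had couple medians of -0.53, 0.26 and 1.09, with a summed log2 level of 13.47 to 14.06 in tamoxifen and 12.61 to 14.13 in oil samples, and the low end was oil sample 3. Erythroid markers (5 of 8 tested) had couple medians of 0.15, 0.97 and -1.61, the last from a high oil sample 3. Heart and skeletal muscle markers (8 of 10 tested, Ckm and Ryr2 not) summed to 11.42 to 13.81 in tamoxifen and 11.75 to 12.48 in oil samples, a sum carried by Myh7 (13.65, 10.38 and 13.54 against 12.00, 11.67 and 10.92). Of the 8 muscle markers 6 had a mean below 0, with couple medians of -0.12, -0.27 and -0.05. Alveolar type 2 markers did not overlap between the groups in their summed levels, given above. That sum was carried by surfactant genes, above all Sftpc (17.72, 17.63 and 17.54 against 17.74, 17.83 and 17.88). Taken singly, 4 of the 10 did not overlap (Sftpc, Sftpa1, Sftpb and Sftpd), and the others did. The Sftpc ratio was above 0 on every array with tamoxifen in Cy5 and below 0 on every array with it in Cy3. Of the 10 markers 9 had a mean below 0, with couple medians of -0.12, -0.27 and -0.21. Summed levels of neutrophil (14.41 to 14.81 in tamoxifen, 14.80 to 14.84 in oil), T and NK cell (10.98 to 11.29 and 10.81 to 11.16), endothelial (12.36 to 12.51 and 12.03 to 12.42), fibroblast (13.76 to 14.52 and 14.01 to 14.63) and fat cell markers (8.08 to 8.35 and 8.26 to 8.31) overlapped. The neutrophil sum was carried by Csf3r (14.23, 14.53 and 14.62 in tamoxifen against 14.71, 14.65 and 14.66 in oil). S100a9 went the other way (10.25, 11.25 and 10.33 against 9.89, 9.88 and 10.20). Of the 9 neutrophil markers tested, 4 had a mean below 0, with couple medians of -0.16, 0.17 and -0.01. The part of all these cells and states in the ratios of the 39 genes was not tested.

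**Figure D4:**
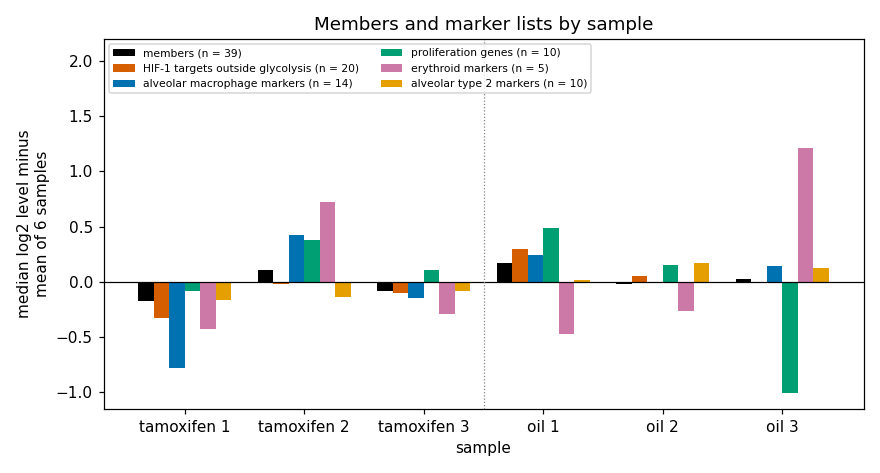
Median over each gene list (y axis) of the log2 level minus the gene's mean over 6 samples, for the 3 tamoxifen and 3 oil samples (x axis), with 1 bar per list. The 39 genes span -0.17 to 0.17, alveolar macrophage markers -0.78 to 0.42, both with their low end in tamoxifen sample 1; erythroid markers reach 1.21 and proliferation genes -1.01 in oil sample 3.

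The dye swap gave a technical check of each couple. The sign of the ratio was the same in both orientations for 36 of the 39 genes in couple 1 (92.3%), for 31 in couple 2 (79.5%) and for 24 in couple 3 (61.5%), against 72.9%, 71% and 70.8% of all genes tested. Different probes of a gene served as another check. Of 23 genes with more than 1 probe bright enough, all probes shared the sign of the mean for 17, the sign in couple 1 for 17, in couple 2 for 18 and in couple 3 for 13. Couple 3 thus had the least repeatable signs of the 39 on both counts. Hk1, Pdk1 and Tkt were discordant between probes in every couple.

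Of the 39 genes 5 lie on chromosome X (Pgk1, G6pdx, Pdha1, Pdk3 and Pfkfb1). Among these, 1 had a mean below 0, with a median ratio of 0.08, while 26 of the 34 on autosomes did, with a median of -0.14. Over all 758 tested genes of chromosome X 34.6% were below 0, with a median of 0.06. The medians of these 758 genes were 0.058, 0.087 and 0.052 in couples 1, 2 and 3. Of the 758, 232 were higher in all 3 couples and 120 on all 6 arrays. Of the 5 genes, 2 were higher in all 3 couples (Pfkfb1 and G6pdx) and 1 on all 6 arrays (Pfkfb1). Of the 34 on autosomes, 1 was higher in all 3 couples (Pfkfb4) and 0 on all 6 arrays. The 5 genes had medians of -0.07, 0.24 and 0.06 in couples 1, 2 and 3. The part of the sex-linked difference within couples in these ratios was not tested.

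Genes of the same and adjoining pathways outside the 39 were counted in the same way. Of 83 such genes on the array 64 were tested, 31 of them below 0 (48.4%), with a median of 0.02 and couple medians of 0.06, 0.07 and -0.08, and none passed the test. On all 6 arrays 5 were lower (7.21% of all genes): Pgm5, an actin-associated protein of the phosphoglucomutase family (-0.63 ± 0.35), Bsg, the chaperone that carries MCT1 and MCT4 to the membrane (-0.36 ± 0.25), Gbe1, the glycogen branching enzyme (-0.34 ± 0.25), Gys1, glycogen synthase (-0.31 ± 0.26), and Gfpt1, the entry enzyme of hexosamine synthesis (-0.06 ± 0.03). Another 7 were higher on all 6 (6.04% of all genes): Prps1, which turns ribose-5-phosphate into the precursor of nucleotides (0.37 ± 0.08), Pck2, the mitochondrial PEP carboxykinase (0.28 ± 0.16), Dlat, the acetyltransferase of the pyruvate dehydrogenase complex (0.23 ± 0.13), Minpp1, an inositol phosphate phosphatase (0.21 ± 0.12), the gene the array names Pgm1, now Pgm2 (0.18 ± 0.14), Slc2a6, a GLUT family member (0.18 ± 0.12), and Pgp, phosphoglycolate phosphatase (0.11 ± 0.08). The adjusted p was 0.69 or above for each of the 64 (limma), so none of these differences was called.

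Among the 3 lowest and the 3 highest means of this list, beside Pgm5 and Prps1, Sord, sorbitol dehydrogenase, was at -0.48 ± 0.88 and Khk, the fructose kinase, at -0.43 ± 0.45. Slc2a10, another GLUT family member, was at 0.37 ± 0.70 and Pygm, muscle glycogen phosphorylase, at 0.33 ± 0.41. In each of these 4 the SD over the 3 couples was larger than the mean. Bsg had log2 levels of 11.63, 11.93 and 12.05 in tamoxifen and of 12.25, 12.27 and 12.18 in oil samples, without overlap, whereas its client Slc16a3 overlapped. Prps1 had levels of 12.19, 11.83 and 11.74 against 11.84, 11.53 and 11.28, lower in oil within each couple but overlapping between couples.

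HIF-1 targets outside glycolysis were set beside the 39 genes. Of 20 tested (a further 1, Car12, was too dim), 16 had a mean below 0, with a median of -0.38 and couple medians of -0.65, 0.00 and -0.05, and none passed the test. On all 6 arrays 8 of the 20 were lower and 0 higher, against 2 and 1 of the 39 glycolysis-related genes (7.21% and 6.04% of all genes). In couple 2, 10 of the 20 were below 0, and 14 of the 39. Hif1a itself was at -0.16 ± 0.34, with -0.33, 0.23 and -0.37 in couples 1, 2 and 3. The difference between the lists was not tested.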

How the data were processed

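RNA of 3 tamoxifen and 3 corn oil tumor samples was read on 6 arrays of 1 slide in 1 scan, so no batch could be tested. Per the labels, cDNA was made from 50 ng of total RNA. The deposited scanner files hold spot intensity in each channel as mean foreground and median background, not normalized, per the file headers. The submitters' processing notes name Agilent Feature Extraction 12.0.3.1. A log10 Cy5/Cy3 ratio stands beside them in the deposited files, background-subtracted and dye-normalized by that software, per the file headers. Flags for dim, saturated or outlying spots are a score of 0 or 1 in the deposited files. The deposited series table holds log2 Cy5/Cy3 ratios. Against the software's log10 ratio its slope was 3.32 to 3.33 per array, and its column medians were 0.14, -0.14 and -0.06 for couples 1, 2 and 3 where Cy5 held tamoxifen, and 0.13, -0.15 and -0.01 where Cy3 did, so scale, centring and direction are known.

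From the intensities, background was corrected by normexp (offset 50) and dyes by loess within arrays, with control spots at weight 0 and outlier spots left out, in limma 3.58.1 under R 4.3.3. Each array holds 62976 spots, of which 3671 are controls, 89 to 132 were outliers and 0 saturated, and 51.8% to 58.8% of probes were well above background in a channel. Spots of a probe were averaged, the brightest probe stood for a gene, and its spots had to lie well above background, for 1 treatment, on the 2 arrays of 2 or more couples. That left 20475 genes, after 2 with a missing spot were dropped. Arrays were turned to tamoxifen over oil, both orientations of a couple were averaged, and the 3 couple ratios were tested against 0 with lmFit and eBayes, two-sided, with Benjamini-Hochberg adjustment at 0.05. A number is shared by the samples of a couple because they share arrays. Levels per sample are channel values after loess and Aquantile normalization, averaged over 2 arrays, and are compared only within a probe. All 39 genes passed the filter, and 38 were well above background in every reading of both groups. Precision is limited by there being 3 couples. The fit was tested on simulated data with the spread of these couples. It recovered 3 of 50 genes changed by 0.585 on the log2 scale and 24 of 50 changed by 1, with 1 false call. At changes of 2 and 3 it recovered 33 and 44 of 50. Each simulated gene took its observed SD over the 3 couples as its true spread, so these counts are only a rough guide.

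The genes given with values in every sample are those with 1 sign on all 6 arrays, the 10 with the largest mean ratio and the 10 with the largest spread between couples, which are 18 genes; Pfkfb4 and Pfkfb2, whose groups did not overlap in sample levels, and Tkt were added after their values were seen. The genes, the lists and the promoter motifs were chosen with earlier results of these data known, and sex-linked genes were added after seeing the data. Array accessions matched a current RefSeq symbol (GRCm38.p6 table) for 36 of 39. Probe positions are those of the deposited files (mm9); exons and untranslated regions were not analysed here. Alternatives changed the background correction, normalization, filter, probe, dye orientation, pairing and couples used.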

Additional observations from a re-analysis of the deposited data

How the results depend on the processing

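No gene of the 39 passed the threshold under any of 16 alternatives, and of 623 values under them 30 changed sign, 20 of these when a couple was left out. Over all genes, 56 passed with 6 arrays and the couple as a random replicate block (within-couple correlation 0.64), where dye-swapped arrays count as partly separate, 1 with the channels taken apart and no replicate block, and 0 with the channels apart and the replicate block; none of the 39 was among them. The pairing follows from shared arrays. In the other alternatives 0 genes passed. The median ratio of the 39 was 0.03, -0.25 and -0.13 without couple 1, 2 and 3 and -0.11 to -0.05 under the others. The cause of these shifts was not tested.

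Leaving out 1 couple in turn, the ratio ran from -0.24 to 0.39 for Aldoc, -0.35 to 0.11 for Eno1, -0.16 to 0.039 for Hk3, -0.68 to 0.46 for Ldhb, -0.008 to 0.16 for Pdha1, -0.27 to 0.037 for Pdk1, -0.10 to 0.12 for Pdk3, -0.71 to 0.10 for Pfkfb3, -0.13 to 0.28 for Pfkm, -0.45 to 0.10 for Pfkp, -0.26 to 0.10 for Pgam1, -0.19 to 0.042 for Pgd, -0.28 to 0.23 for Pgk1, -0.27 to 0.10 for Pkm, -0.63 to 0.34 for Slc16a3, -0.38 to 0.40 for Slc2a1, -0.005 to 0.34 for Tkt and -0.29 to 0.089 for Tpi1. Centring each array on its median in place of loess turned Pgk1 (0.037) and Pgam1 (0.019), and the mean of all probes turned Hk1 (-0.009). With only the arrays that had tamoxifen in Cy5, Hk3 (0.041), Slc2a1 (0.28), Pdk2 (0.043), Pdk3 (-0.016) and G6pdx (-0.055) changed sign, and with only those that had it in Cy3, Aldoc (-0.028) and Tpi1 (0.07). With 3 couples, the test resolves only shifts well above their spread.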
